A study of Homo sapiens with 47 samples.

Results

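The mRNAs of heterogeneous nuclear ribonucleoproteins (hnRNPs) and of serine/arginine-rich (SR) splicing factors were described in 47 single cells. The set holds every row of the deposited table of unique molecular identifiers (UMIs, counts of tagged cDNA molecules) whose symbol begins with HNRNP, or with SRSF followed by a digit, and it came to 65 of 18651 gene rows. Of these, 55 were HNRNP rows, made up of 22 genes, 32 pseudogenes and 1 antisense transcript (HNRNPU-AS1), and 10 were SRSF genes. No row had the symbol SRSF8 or SRSF10, so these genes were not analysed here. The rule uses symbols and no measured value, though the set was proposed with earlier results of these data known.

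The cells were HEK293, a human embryonic kidney cell line, grown in DMEM with glutamine and fetal calf serum and carrying no further treatment. Each cell was lysed in a chamber of a Fluidigm C1 array together with a known amount of ERCC spike-in RNA, and its polyadenylated RNA was read from the 5′ end on an Ion Torrent Proton. All 47 cells form 1 group from 1 run, no separate cultures are named, and there is no second condition. Cells are therefore given as individual points, and no p-value is attached to any value.

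The table held 2919198 endogenous UMIs, between 29325 and 138647 per cell with a median of 59689, and 17.7% of the spike-in molecules added were recovered as UMIs, between 12.9% and 23.6% per cell. The 47 columns were all different from each other. Cell 52 stood apart, with mitochondrial mRNAs at 12.1% and ribosomal protein mRNAs at 18.2% of its UMIs, against at most 5.02% and at least 23.7% in the other cells, and results that rest on it are given without it. All 7 genes of a list typical of HEK293 (VIM, KRT8, KRT18, NEFL, NEFM, LIN28B and IGF2BP1) had UMIs, between 8 and 101 per cell in sum. Lists of blood, fibroblast and hepatocyte markers had 1 of 5, 2 of 5 and 1 of 3 genes with a row, with 6, 13 and 4 UMIs over all cells, and each list reached at most 3, 8 and 3 UMIs in a cell.

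hnRNPs coat nascent pre-mRNA through RNA recognition motifs or KH domains, and many of them reduce the use of nearby splice sites. SR proteins combine RNA recognition motifs with a tail of arginine and serine repeats, bind exonic enhancers and recruit the splicing machinery, under the control of SRPK and CLK kinases that phosphorylate the tail. Members of both families regulate their own mRNAs through exons that lead to decay of the transcript, and several shuttle to the cytoplasm, where they act in export, translation and mRNA stability. MALAT1 is a long non-coding RNA of nuclear speckles, the bodies in which SR proteins are stored, and it is known to bind SR proteins.

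Because the assay tags the 5′ end of each molecule, the sequence around the transcription start is the stretch of each gene nearest to what was counted. The RefSeq promoter table (assembly GRCh38.p14, a later build than the one the counts were made on) held 30 of the 32 genes, HNRNPA1 and SRSF2 not being among them. The 7 letters GCCATTT, which overlap the core of the recognition sequence of the factor YY1, lay within 50 bases of a listed start, on either strand, in 8 of these 30 genes (26.7%), against 540 of 27305 genes in the whole table (1.98%). Where the mean was 5 UMIs per cell or more, the motif was in 8 of 22 members (36.4%) and in 4.65% of 1418 genes. The motif was picked after the sequences had been looked at, so these shares are a description. The sequences of the 8 genes are shown because they share these letters close to the start, with HNRNPA2B1 and SRSF7 as abundant members without them. Each runs from 30 bases before the listed start to 30 bases after it, 5′ to 3′ on the gene's own strand, and capitals mark the motif, which reads as its reverse complement in HNRNPM.
HNRNPR (chr1:23344255-23344314, minus strand): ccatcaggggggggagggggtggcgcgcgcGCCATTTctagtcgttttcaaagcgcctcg
HNRNPD (chr4:82373962-82374021, minus strand): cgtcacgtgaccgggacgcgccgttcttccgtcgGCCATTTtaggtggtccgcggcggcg
HNRNPH1 (chr5:179623372-179623431, minus strand): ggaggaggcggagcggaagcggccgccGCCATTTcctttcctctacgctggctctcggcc
SRSF3 (chr6:36594332-36594391, plus strand): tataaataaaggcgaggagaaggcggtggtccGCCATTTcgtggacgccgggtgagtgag
HNRNPC (chr14:21269413-21269472, minus strand): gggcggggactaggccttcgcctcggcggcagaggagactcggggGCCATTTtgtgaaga
SRSF1 (chr17:58007217-58007276, minus strand): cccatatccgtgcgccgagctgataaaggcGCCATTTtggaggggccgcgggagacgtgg
HNRNPM (chr19:8444945-8445004, plus strand): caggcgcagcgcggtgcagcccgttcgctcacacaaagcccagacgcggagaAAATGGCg
HNRNPUL1 (chr19:41264342-41264401, plus strand): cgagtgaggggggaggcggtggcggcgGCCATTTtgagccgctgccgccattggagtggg
HNRNPA2B1 (chr7:26200717-26200776, minus strand): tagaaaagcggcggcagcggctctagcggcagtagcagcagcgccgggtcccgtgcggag
SRSF7 (chr2:38751465-38751524, minus strand): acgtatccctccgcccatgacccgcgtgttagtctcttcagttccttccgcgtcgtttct
HNRNPH1 has several listed starts, of which another also carries the motif and others do not. HNRNPUL1 also has listed starts without the motif. Which start the cells used was not examined. Absence from the window says only that the letters are not there. The 8 genes that carry the motif had a median pairwise Spearman rho of 0.127 over 28 pairs across the cells, and the members with a listed promoter but no motif had 0.0866 over 91 pairs, both close to 0.

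All 65 rows together took 23129 UMIs, 0.792% of the endogenous total. hnRNP rows held 14899 UMIs (0.510%, exact binomial 95% interval 0.502% to 0.519%), or about 1747 ± 536 molecules per cell (SD, n = 47) once each cell's UMIs were divided by its spike-in recovery. SR rows held 8230 UMIs (0.282%, interval 0.276% to 0.288%), or about 962 ± 325 molecules per cell (SD, n = 47). These numbers of molecules take cellular mRNAs to be recovered as well as the spike-ins, which was not tested. Intervals here and below cover counting error only. Every cell had more hnRNP than SR UMIs, the ratio of SR to hnRNP UMIs being 0.344 in cell 23, 0.546 in the median cell and 0.761 in cell 56, where cells carry the chamber number of their label.

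Most of the rows carried little of this total. HNRNPA1 and HNRNPA2B1 gave 35.04% of hnRNP UMIs, and SRSF3, SRSF7 and SRSF2 gave 58.0% of SR UMIs. A mean of at least 5 UMIs per cell was reached by 24 genes, 16 hnRNP and 8 SR, of which 18 had a UMI in every cell, and 41 of the 47 cells had a UMI of all 24. Another 9 rows had at least 20 UMIs over all cells, 28 had between 1 and 19, and 4 pseudogene rows (HNRNPA1P38, HNRNPA1P19, HNRNPA1P50 and HNRNPMP1) had 0, which allows a share of up to 0.000103%. Levels below are UMIs per 100000 endogenous UMIs of the cell, given as the lowest, the median and the highest of 47 cells. One UMI stands for 1 tagged molecule whatever the length of the mRNA, so these levels were compared between genes without division by length. Whether long and short mRNAs were tagged equally well was not tested.

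The A/B hnRNPs, which bind UAGG-like elements and antagonise SR proteins at splice sites, were the most abundant group. HNRNPA1, the classical repressor of exon inclusion, stood at 37.3 in cell 87, 100.5 in the median cell and 162.6 in cell 8, with 59.2 ± 26.5 UMIs per cell (SD, n = 47). HNRNPA2B1, which also acts in RNA transport and sorting, stood at 15.9 in cell 31, 77.9 in the median cell and 140.7 in cell 17, with 51.9 ± 23.7 UMIs per cell (SD, n = 47). HNRNPA3, a close relative of both, was lower, at 2.36, 17.9 and 35.5. The ranges of HNRNPA1 and HNRNPA2B1 overlapped over most of their extent, while HNRNPA3 lay below HNRNPA2B1 in all 47 cells. HNRNPA0, encoded by an intronless gene, had 106 UMIs in 35 cells, and the HNRNPA1-like gene HNRNPA1L2 had 17 UMIs in 14 cells. When every cell was thinned to 29325 endogenous UMIs, 27 and 5 cells had a UMI of these genes.

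HNRNPC, which binds uridine tracts as a tetramer and packages nascent transcripts, followed both, at 15.4 in cell 10, 49.5 in the median cell and 70.0 in cell 43. The HNRNPC-like gene HNRNPCL1 had 1 UMI in all. HNRNPR, a relative of SYNCRIP that also acts in neuronal mRNA transport, stood at 3.41 in cell 23, where it had 1 UMI, 34.5 in the median cell and 76.0 in cell 74. From lowest to highest cell HNRNPC thus had a narrower range than HNRNPR, whose lowest cell is also the shallowest of the 47. Their SDs per 100000 were alike, at 13.9 for HNRNPC and 13.5 for HNRNPR.

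The D hnRNPs bind AU-rich elements as well as introns. HNRNPDL, which resembles HNRNPD, stood at 6.37, 32.7 and 60.1. HNRNPD (AUF1), a factor in the decay of AU-rich mRNAs, stood at 0 in cell 23, 22.2 in the median cell and 61.5 in cell 73. HNRNPAB stood at 2.37, 16.7 and 37.9. Their ranges overlapped, and in cell 73 HNRNPD was at its highest while HNRNPAB, with 1 UMI, was at its lowest.

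The H/F hnRNPs recognise runs of guanines. HNRNPH1 stood at 7.14, 20.4 and 46.1, HNRNPF at 0, 13.97 and 36.7, and HNRNPH3 at 0, 9.04 and 27.8. HNRNPH2 had 147 UMIs in 41 cells, and in 30 after the same thinning. HNRNPH1 and HNRNPH2 are closely similar in sequence and how reads that match several places were counted is not given in the sources used here, so the division of UMIs between them is uncertain.

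Of the remaining hnRNPs, HNRNPM, which binds GU-rich RNA, stood at 8.61, 23.1 and 47.7, and HNRNPK, a KH-domain protein that binds cytidine tracts and DNA, at 9.24, 21.6 and 47.7. HNRNPL, which binds CA repeats, stood at 5.61, 16.8 and 33.97, and its paralog HNRNPLL, known for splicing of PTPRC in T cells, had 41 UMIs in 22 cells, 14 after thinning. HNRNPU, the scaffold attachment factor of chromatin, stood at 3.19, 14.7 and 35.5. Its relatives HNRNPUL1 and HNRNPUL2 stood at 1.46, 8.82 and 30.7 for the first and had 44 UMIs in 20 cells, 12 after thinning, for the other. The antisense row HNRNPU-AS1 had 32 UMIs in 19 cells, and whether reads were assigned by strand is not given in the sources used here, so reads of HNRNPU and of its antisense partner cannot be told apart with certainty.

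SRSF3, the smallest SR protein and a link to mRNA export, led the SR genes at 22.3 in cell 31, 64.4 in the median cell and 97.6 in cell 2. SRSF7, an SR protein with a zinc knuckle that also recruits the export receptor NXF1, stood at 20.2 in cell 35, 50.3 in the median cell and 92.8 in cell 50. SRSF2 (SC35), long used as a marker of nuclear speckles, stood at 6.82 in cell 23, 43.2 in the median cell and 70.7 in cell 20. These 3 genes formed the upper tier of the SR family, with overlapping ranges.

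A middle tier held SRSF11, an atypical SR protein, at 13.3, 33.5 and 55.7, SRSF9 at 7.62, 26.96 and 46.2, and SRSF5 at 0 in cell 10, 26.4 in the median cell and 49.9 in cell 28. SRSF1 (SF2/ASF), the founding member of the family, was far lower, at 0 in cell 52, 10.2 in the median cell and 46.1 in cell 10. SRSF6 stood at 0, 10.1 and 30.0. SRSF4 had 206 UMIs in 45 cells, 40 after thinning, and 22 of these UMIs were in cell 2. SRSF12 had 47 UMIs in 21 cells, and in 17 after thinning.

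**Figure D1:**
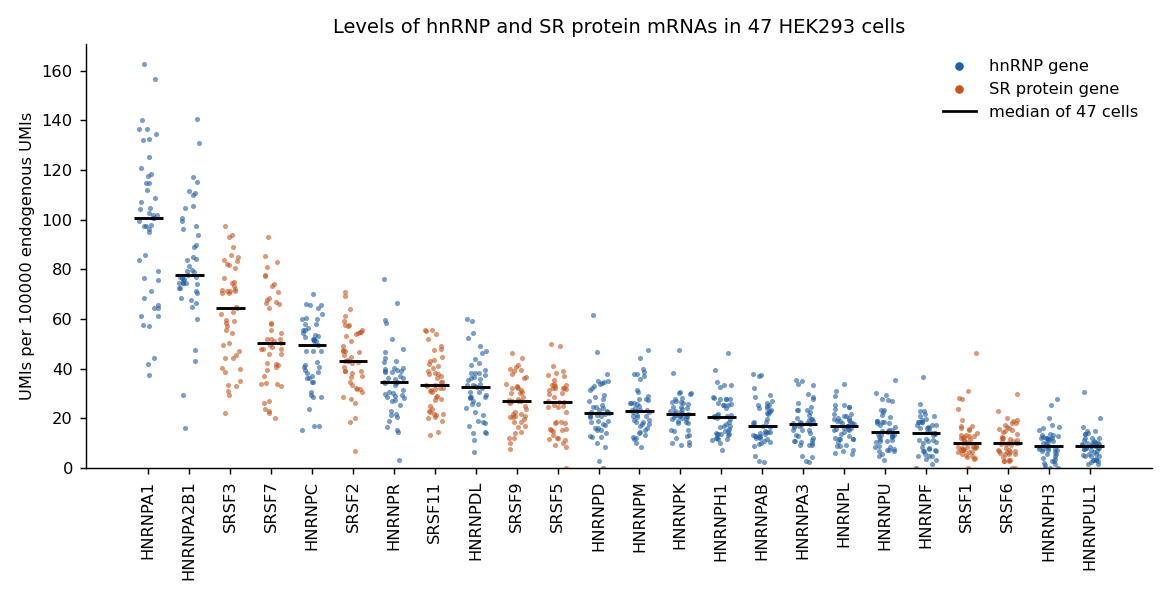
UMIs per 100000 endogenous UMIs (vertical axis) of the 24 hnRNP and SR genes with a mean of at least 5 UMIs per cell, ordered by total, with 1 point per cell and a bar at the median of 47 cells. Medians run from 100.5 for HNRNPA1 to 8.82 for HNRNPUL1, and neighbouring genes overlap.

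The pseudogene rows held 199 UMIs, 0.860% of the set. Of these, 164 fell on 19 rows named for HNRNPA1, which is 5.89 for every 100 UMIs of HNRNPA1 itself. HNRNPA1P7 alone had 98 UMIs in 41 cells, or 3.52 per 100, spread over the cells no more widely than counting error gives (index of dispersion 0.899, explained below). Of the 32 pseudogene rows 24 had 1 to 5 UMIs and 4 had more. Processed copies of HNRNPA1 match its mRNA closely, so UMIs on these rows may belong to either source and are uncertain.

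Within each group of paralogs, the shares of its members describe which form a cell carried. Over all cells HNRNPA1 made up 47.3% of A/B UMIs, HNRNPA2B1 41.5%, HNRNPA3 9.12% and HNRNPA0 1.80%. The order of the first pair changed from cell to cell, HNRNPA1 having more UMIs in 30 cells, fewer in 16 and the same number in 1. Cell 31 had 44 HNRNPA1 and 5 HNRNPA2B1 UMIs, while cell 17 had 27 and 59, and cell 21 had 25 and 59. The share of HNRNPA1 within the group was thus 83.0% in cell 31 and 23.6% in cell 21.

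**Figure D2:**
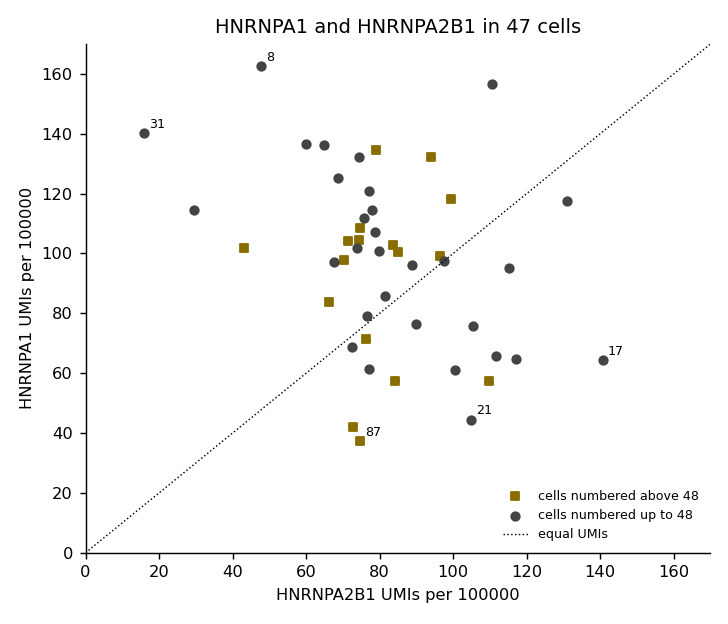
HNRNPA1 (vertical) against HNRNPA2B1 (horizontal), both in UMIs per 100000 endogenous UMIs, with 1 point per cell, squares for cells numbered above 48 and circles for cells numbered up to 48. The dotted line marks equal UMIs, and cell 31, at 15.9 on the horizontal axis, lies far from cell 17, at 140.7.

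In the group of HNRNPD, HNRNPDL made up 43.3% of UMIs, HNRNPD 31.7% and HNRNPAB 25.0%. HNRNPH1 made up 42.9% of H/F UMIs and exceeded HNRNPF in 36 cells. HNRNPL made up 92.6% of the pair it forms with HNRNPLL and exceeded it in 46 cells.
HNRNPU made up 59.0% of its group, HNRNPUL1 35.2% and HNRNPUL2 5.80%. Among SR proteins, SRSF9 made up 70.1% of the pair it forms with SRSF1, its closest relative, and exceeded it in 42 cells. SRSF3 made up 55.6% of the SRSF3 and SRSF7 pair and exceeded SRSF7 in 32 cells, SRSF7 being ahead in 13. SRSF5 made up 59.0%, SRSF6 25.1% and SRSF4 15.98% of the trio whose proteins share a layout of paired RNA recognition motifs. The index of dispersion of the division, defined below, was 3.06 for SRSF3 and SRSF7 (3452 UMIs), 2.79 for the A/B group (5879 UMIs) and 1.41 for HNRNPL and HNRNPLL (551 UMIs). It rises with the number of UMIs, so the groups are not ranked by it.

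Spread between cells was measured with an index of dispersion, the chi-square of a gene's UMIs over the cells, with expectations in proportion to each cell's endogenous UMIs, per degree of freedom. Counting error alone gives an index of about 1, and the 52 spike-ins with at least 20 UMIs, measured against the spike-in totals, ran from 0.757 to 3.97 with a median of 2.11. Of the 33 members with at least 20 UMIs, 1 lay above every spike-in, HNRNPA1 at 5.22, and 3.21% of the 9088 genes with that many UMIs did so. Where the mean was 5 UMIs or more, 1 of 24 members and 171 of 1830 genes (9.34%) did so. Above the median spike-in lay 19 of the 33 (57.6%), against a background of 43% of the 9088 genes. The index rises with abundance, and where the mean was 5 UMIs or more the shares were 16 of 24 members (66.7%) and 68.7% of 1830 genes. The members' share was thus near that of all genes above this minimum, which were not matched to the members in abundance. The median index of the 24 members was 2.17, against 2.46 for the 1830 genes.

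HNRNPA1 had a higher index than 95.7% of the genes with a mean of at least 5 UMIs. It stayed the most dispersed of the 24 members when every cell was thinned to 29325 UMIs, where its index of 3.32 was just below the highest spike-in, at 3.35, so that no member passed. Without thinning SRSF7 had an index of 3.78, SRSF3 one of 3.26 and HNRNPA2B1 one of 3.25, and after thinning these were 2.89, 2.35 and 2.61. Without cell 52, SRSF7 also passed the highest spike-in. SRSF4 had an index of 2.83, which was 1.65 without cell 2.
At the other end, HNRNPL had an index of 1.203 and HNRNPK one of 1.29, so their UMIs followed the total of each cell nearly as closely as counting error allows. SRSF9 was the least dispersed SR gene, at 1.84. The median index was 2.01 over the 23 hnRNP rows and 2.48 over the 10 SR rows. The hnRNP rows include the antisense row and pseudogene rows with few UMIs, HNRNPA1P7 (0.899) and HNRNPA1P48 (0.764). The SR rows are all genes, so the medians cover unlike kinds of rows.

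**Figure D3:**
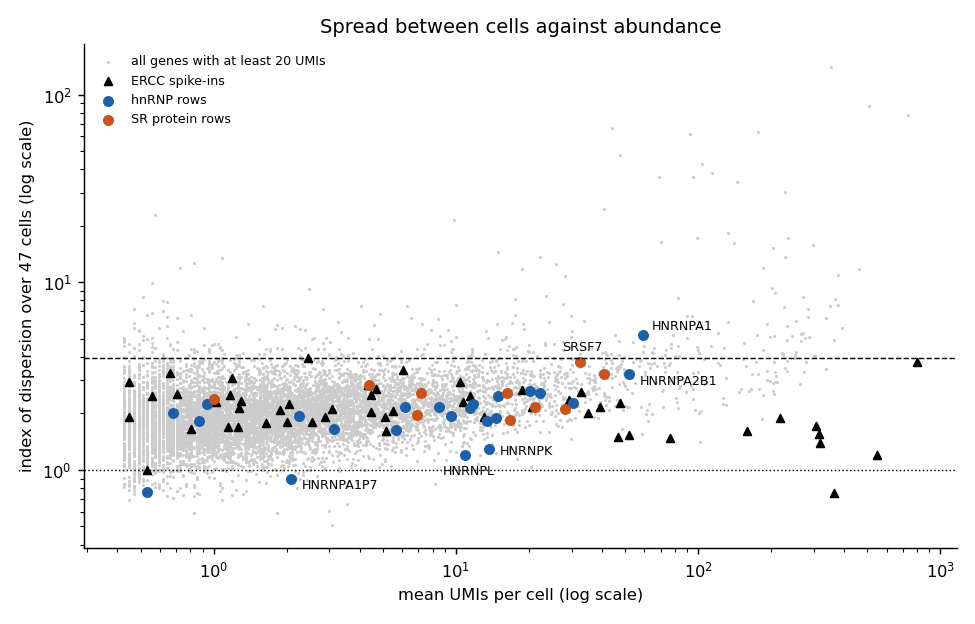
Index of dispersion over 47 cells (vertical, log scale) against mean UMIs per cell (horizontal, log scale) for hnRNP rows (blue), SR rows (orange), ERCC spike-ins (triangles) and all genes with at least 20 UMIs (grey). The dashed line is the highest spike-in at 3.97 and the dotted line is 1, the value for counting error; only HNRNPA1 among the members lies above the dashed line.

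The summed shares of both families differed between cells by more than counting error. hnRNP rows made up 0.347% of UMIs in cell 14 (interval 0.287% to 0.415%), 0.514% in the median cell and 0.623% in cell 50 (interval 0.572% to 0.678%), a 1.80-fold range. SR rows made up 0.150% in cell 23 (interval 0.109% to 0.201%), 0.279% in the median cell and 0.402% in cell 50 (interval 0.360% to 0.446%), a 2.68-fold range. The index of dispersion of the sums was 4.33 for hnRNP and 4.43 for SR rows. Cell 50 was therefore the highest for both families, and the lowest cells of each were among the shallow ones, with 34030 endogenous UMIs in cell 14 and 29325 in cell 23.

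The hnRNP share and the SR share of a cell went together, with a Pearson r of 0.602 and a Spearman rho of 0.540 over 47 cells. Without cells 14 and 87, the farthest from the median hnRNP share, r was 0.585. Cells share their library pool, run and denominator, and this is a description. Within the 30 cells numbered up to 48 rho was 0.583, and within the 17 numbered above 48 it was 0.446. After thinning each cell to the same number of UMIs rho was 0.324.

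Pair by pair, the relation was weak. Over the 276 pairs of the 24 genes the median rho was 0.0949, and over 1673535 pairs of all genes with a mean of at least 5 UMIs it was 0.0125. Positive values made up 203 member pairs (73.6%), against 53.1% of all pairs. A rho of at least 0.3 was seen in 27 member pairs (9.78%), against a background of 3.27% of all pairs, and a rho of -0.3 or lower in 6 member pairs (2.17%), against 2.34%. Pairs share genes and are not independent. The genes of the background pairs were not matched to the members in abundance. The median rho of the members was 0.0720 with a minimum mean of 1 UMI and 0.151 with one of 20 UMIs. The part of abundance in these shares was not tested.
Medians were alike within hnRNPs (0.0968, 120 pairs), within SR proteins (0.101, 28 pairs) and between the families (0.0868, 128 pairs).

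The 5 highest pairs each joined an hnRNP with an SR protein, but of the 27 pairs at 0.3 or more 13 did so, 12 joined 2 hnRNPs and 2 joined 2 SR proteins, against 128, 120 and 28 of the 276. HNRNPA2B1 and SRSF5 had a rho of 0.452, although Pearson's r was 0.265. HNRNPD stood in 2 of the 5 highest pairs, with SRSF2 at a rho of 0.416 and with SRSF11 at 0.408. HNRNPDL with SRSF3 (0.409) and HNRNPA1 with SRSF9 (0.404) completed them. The HNRNPA1 and SRSF9 pair had like values in both ranges of cell numbers, 0.406 up to 48 and 0.419 above. So did HNRNPA2B1 and SRSF5, at 0.467 and 0.478.
At the low end, HNRNPH3 and HNRNPK had a rho of -0.424, HNRNPA1 and HNRNPR one of -0.403, and HNRNPF and HNRNPK one of -0.363. For HNRNPA1 and HNRNPR it was -0.522 up to cell 48 and -0.152 above. HNRNPA1 and HNRNPA2B1, the most abundant paralogs, had a rho of -0.352 and an r of -0.354, which was -0.340 without cells 87 and 8. That relation was -0.549 in the cells numbered up to 48 and 0.152 in those above, so its direction was not shared by both ranges. HNRNPR and SRSF1, at -0.305, was the fifth lowest pair. Other paralogs differed among themselves. SRSF1 and SRSF9 had a rho of 0.322, the highest between SR genes, SRSF3 and SRSF7 one of 0.231, HNRNPH1 and HNRNPF one of 0.204, and HNRNPD and HNRNPDL one of -0.0177.

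**Figure D4:**
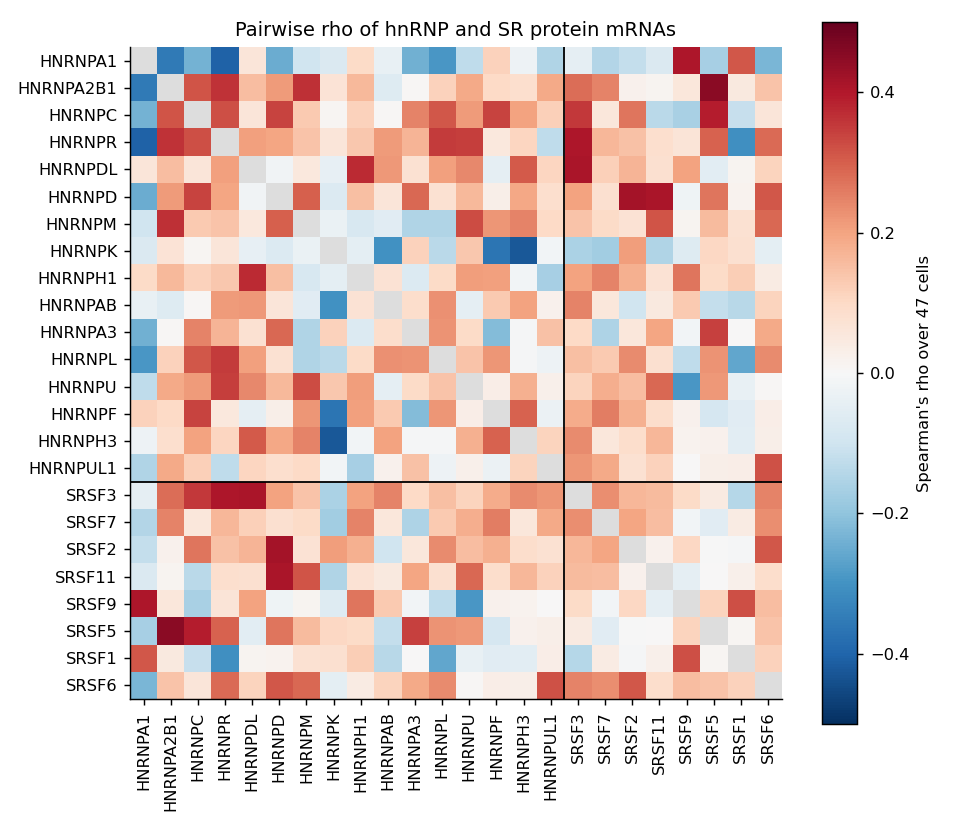
Spearman's rho over 47 cells for each pair of the 24 hnRNP and SR genes with a mean of at least 5 UMIs, hnRNP genes first and SR genes after the black lines, on a colour scale from -0.5 (blue) to 0.5 (red). Values run from -0.424 to 0.452 with a median of 0.0949, and no block of strongly related genes is visible.

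MALAT1 had 4468 UMIs, 0.153% of the total, and varied far more than the splicing regulators. Its share was 0.0112% in cell 34, which had 5 UMIs, 0.146% in the median cell and 0.474% in cell 52, which had 155 UMIs, with an index of dispersion of 36.3. The hnRNP share had almost no relation to it, with an r of -0.0904 and a rho of -0.0698 over 47 cells, and an r of -0.0483 without cells 52 and 31. The SR share leaned lower where MALAT1 was higher, with an r of -0.316 and a rho of -0.225. Without the same cells its r was -0.268 and its rho was weaker, at -0.156. With only cell 52 left out, rho was -0.201 for SR and -0.123 for hnRNP. Neither relation was alike in both ranges of cell numbers. Up to 48, rho was -0.3001 for hnRNP and -0.432 for SR, and above 48 it was 0.172 for hnRNP and 0.0564 for SR. Scaling by spike-ins in place of endogenous UMIs gave a rho of 0.313 for hnRNP and 0.257 for SR. That scaling multiplies all shares of a cell by the same factor, its endogenous UMIs per spike-in UMI. The hnRNP and SR relation was 0.881 under it, and the part of the factor in these values was not tested. Under TMM factors, DESeq2 size factors and the denominator without mitochondrial, ribosomal protein and MALAT1 UMIs, rho for SR was -0.0584, -0.109 and -0.195.

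**Figure D5:**
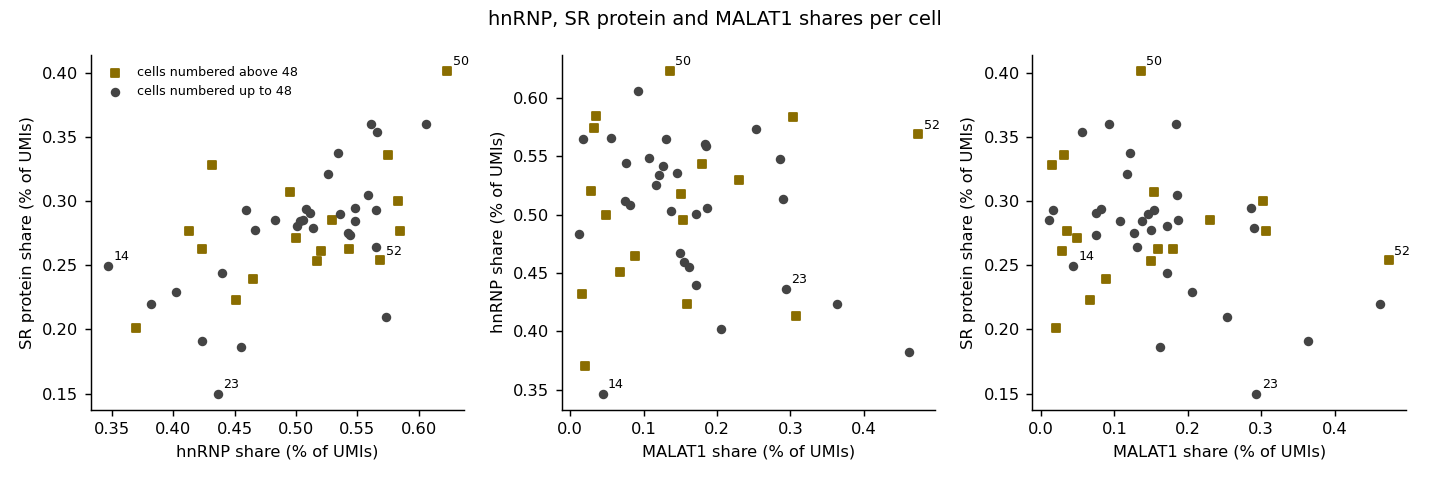
Share of a cell's endogenous UMIs in percent: SR rows against hnRNP rows (left), hnRNP rows against MALAT1 (middle) and SR rows against MALAT1 (right), with squares for cells numbered above 48 and circles for cells numbered up to 48. Cells 23, 50, 52 and 14 are numbered; the families rise together (r of 0.602), while neither panel with MALAT1 shows a tight relation.

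Among single members, 4 of 24 (16.7%) had a rho with the MALAT1 share of 0.3 or more in size, and 6.78% of the 1829 genes compared did so. SRSF6 stood at -0.343, SRSF7 at -0.339 and SRSF2 at -0.312, and HNRNPC stood at 0.308 on the other side. This made 3 of 8 SR genes and 1 of 16 hnRNP genes. The middle 90% of all genes ran from -0.296 to 0.241, so these 4 lay just outside it. The next highest members were HNRNPAB at 0.139 and HNRNPH3 at 0.112. Without cell 52, SRSF6 stood at -0.314 and SRSF7 at -0.334, while SRSF2 (-0.279) and HNRNPC (0.284) fell below 0.3 in size. With cell 31 left out as well, SRSF6 was at -0.299, SRSF2 at -0.243 and HNRNPC at 0.288. Of these 4, only SRSF7, at -0.319, then kept that size. The share of all genes was not recomputed without these cells.
SRSF7 had a rho of -0.507 in cells numbered up to 48 and -0.00980 in those above, and SRSF2 had -0.253 and -0.507, whereas SRSF6 had -0.461 and -0.230. HNRNPC had 0.155 up to 48 and 0.596 above. HNRNPC was also the member most related to depth, with a rho of 0.572 with the endogenous UMIs of the cell, followed by SRSF3 at 0.454. The MALAT1 share had a rho of 0.109 with the endogenous UMIs, and the part of depth in the MALAT1 relation was not tested. The median rho with MALAT1 was -0.0226 over the 24 members, against -0.0375 over all genes.

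The summed share of 81 ribosomal protein mRNAs was lower where the hnRNP share was higher (r of -0.434, rho of -0.344) and where the SR share was higher (r of -0.390, rho of -0.398). In cells numbered up to 48 these rho were -0.434 for hnRNP and -0.483 for SR, and above 48 they were -0.145 and -0.186. Without cell 52 they were -0.314 for hnRNP and -0.439 for SR. Cells 52 and 23 were the farthest from the median ribosomal protein share, and without both the rho were -0.284 and -0.401. All shares are parts of 1 total, in which ribosomal protein mRNAs weigh far more. Of the 24 members 21 had a negative rho with that share, as did 1115 of 1752 genes, and the median was -0.190 over the members, against -0.0695 over all genes. HNRNPR lay at -0.570, and its value was -0.548 up to cell 48 and -0.664 above. Its rho was -0.548 without cell 52 and -0.517 without cells 52 and 23. Only 0.219% of the 1830 genes with a mean of at least 5 UMIs, ribosomal protein genes included, lay lower than -0.570.
HNRNPA1 was 1 of the 3 exceptions, at 0.289, with 0.325 up to cell 48 and 0.265 above. Its value over all cells was higher than 92.8% of the same 1830 genes. It also lay above 0.264, the 95th percentile of the 1752 genes without ribosomal protein genes. The rho of HNRNPA1 was 0.295 without cell 52, and 0.252, below that mark, without cells 52 and 23. The mark itself was not recomputed without these cells. HNRNPK (0.167) and SRSF1 (0.197) were the other exceptions. HIST1H4C, a replication histone mRNA abundant in S phase, had a rho of -0.301 with the SR share (-0.479 up to cell 48 and -0.0907 above) and -0.188 with the hnRNP share (-0.297 and -0.0221). A sum of 15 G2/M genes had a rho of 0.226 with the SR share, which was 0.354 up to cell 48 and -0.0245 above, and 0.0237 with the hnRNP share (0.0501 and -0.140). Mitochondrial mRNAs had a rho of -0.304 with the SR share (-0.00734 up to cell 48 and -0.554 above) and -0.0671 with the hnRNP share. Without cell 52 their rho was -0.291 with the SR share and -0.117 with the hnRNP share.

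A list of 55 other splicing regulators was set beside the members, of which 53 had a row and 52 had at least 20 UMIs. Of these, 0 of 52 lay above the highest spike-in, where 3.21% of all genes did, 23 of 52 lay above the median spike-in, where 43% of all genes did, and their median index was 2.06. Only 7 had at least the 693.5 UMIs of the median member among the 24. These were SON, a scaffold of nuclear speckles, with 1429 UMIs, RBMX (also named hnRNP G) with 1348, the helicase DDX5 with 1150, RBM39 with 1003, the cold-inducible RBM3 with 987, the SR-related SRRM1 with 831, and PTBP1 (also named hnRNP I), which binds pyrimidine tracts, with 764. The index of SON was 3.34 and that of PTBP1 was 1.59. Among the 30 with a mean of at least 5 UMIs, 0 had a rho with the MALAT1 share of 0.3 or more in size, which 6.78% of all genes had.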

How the data were processed

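Counts of UMIs per gene and cell were used as deposited by the authors, in 1 table of 47 cells. The submitters' processing notes name cutadapt 1.2.1, STAR 2.4.0a and the builds hg19 and GRCh37. The annotation, the collapsing of UMIs, the treatment of multiple matches and the use of strand are not given in the sources used here. Of the rows, 78 were spike-ins, and 1 line under the header, which repeats the cell numbers and holds no counts, was left out. No column was left unmapped to a sample.

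Members and lists were chosen with earlier results of these data known. Cells come from no separately named cultures, so spread, shares and Spearman or Pearson correlations are given without p-values. Shares of single cells and of totals have exact (Clopper-Pearson) 95% binomial intervals, and a count of 0 is limited to 3 counts. Indices of dispersion need at least 20 UMIs, and correlations a mean of at least 5. Estimated molecules divide UMIs by the recovery of the 20000 spike-in molecules added per cell. Thinning drew each cell down to 29325 endogenous and 2573 spike-in UMIs, once, with a fixed seed. The text names all members with a mean of at least 5 UMIs, the 5 highest and 5 lowest pairs, the 3 highest and 3 lowest relations to MALAT1, and other regulators as abundant as the median member. Relations to ribosomal protein mRNAs were named after their values were seen. The motif search covered 50 bases on each side of the listed starts, and a gene with several starts counted if any held it. The calculations were checked on simulated counts. Python 3.11.15 with numpy 2.4.6, pandas 2.3.3, scipy 1.17.1 and matplotlib 3.10.9 was used, and R 4.3.3 with edgeR 4.0.16 and DESeq2 1.42.0 gave alternative scaling factors only. Alternatives were other scalings, thinning, other minima, a smaller denominator, both ranges of cell numbers, and leaving out each cell.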

Additional observations from a re-analysis of the deposited data

How the results depend on the processing

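Of 54 recomputed values under the alternatives, 33 stayed within the spread allowed and 21 moved beyond it. The cause of these moves was not tested. The median pairwise rho of the members was 0.146 with TMM factors, 0.394 with spike-in scaling and 0.151 among members with a mean of at least 20 UMIs. For the hnRNP and SR shares rho was 0.661 with TMM, 0.881 with spike-in scaling and 0.324 after thinning. For hnRNP and MALAT1 rho was 0.0996 with TMM, 0.313 with spike-in scaling, -0.3001 up to cell 48 and 0.172 above. For SR and MALAT1 it was -0.0584 with TMM, 0.257 with spike-in scaling, -0.432 up to cell 48 and 0.0564 above. Spike-in scaling multiplies all shares of a cell by the same factor, its endogenous UMIs per spike-in UMI. The part of that factor in the positive values was not tested. The number of members above the spike-in limit was 3 with TMM (HNRNPA1, SRSF3 and SRSF7), 8 with spike-in scaling, 0 after thinning, 2 without cell 52 and 19 against the median spike-in. Without mitochondrial, ribosomal protein and MALAT1 UMIs in the denominator, hnRNP rows made up 0.748% and SR rows 0.413%. The SR rows hold no pseudogene, so leaving those out was not run for them. Leaving out each cell in turn gave 0.0802 to 0.104 for the median pairwise rho, 0.510 to 0.603 for hnRNP and SR, -0.133 to -0.0226 for hnRNP and MALAT1, -0.281 to -0.177 for SR and MALAT1, and 1 to 2 members above the limit. No paired analysis was possible because all cells form 1 group. At 29325 UMIs in the shallowest cell, members with a median under 10 UMIs per 100000 rest on a few UMIs per cell.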
